A study of Mus musculus with 6 samples.

Results

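The PI3K, AKT and mTOR nutrient-sensing genes are 42 genes of the pathway that couples growth signals and nutrients to cell growth. They were examined for sites of UTX, an enzyme that removes methyl groups from lysine 27 of histone H3 and is encoded by the X-linked gene Kdm6a. The list of genes was drawn up with earlier results of these data known. Sites were then taken by gene symbol alone, as the rows of the authors' deposited table assigned to a member. Of the 42 genes, 25 had at least 1 row and 17 had none, and the 25 genes held 37 of the 6739 sites in the table. Each site is 401 bp wide, in build mm10.

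The table came from CUT&Tag, in which an antibody tethers a transposase to chromatin so that DNA next to the bound protein is cut out and sequenced. The antibody was against UTX, and the cells were Ly108+ CXCR6- CD8 T cells, the progenitor subset, sorted from pancreatic lymph nodes. All mice were NY8.3 animals on the NOD background, a strain prone to autoimmune diabetes, with a transgenic T cell receptor that recognises a pancreatic islet antigen. The 3 WT samples came from NY8.3 mice, and the 3 UTX-deficient samples from NY8.3 mice with UTX deleted in T cells only (UTXTCD.NY8.3), so that the comparison reads which regions the antibody marks in the presence and in the absence of UTX. The driver of the deletion, the part of Kdm6a removed, the ages of the mice and any pooling of animals are not stated in the labels. These do not say whether samples of a group came from separate mice, so p-values measure only the spread between these samples. In sorted cells measured in bulk, fewer cells with UTX at a site and less UTX per cell cannot be told apart.

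As background, phosphatidylinositol 3-kinase (PI3K) makes a membrane lipid that recruits the kinases PDK1 and AKT, and AKT relieves the brake that the TSC complex puts on the GTPase Rheb, the direct activator of the kinase complex mTORC1. Amino acids act in parallel through the Rag GTPases, which bring mTORC1 to the lysosome, whereas energy and stress sensors such as AMPK, the sestrins and REDD1 hold it back. In CD8 T cells, strong signalling through this pathway is known for driving growth, glycolysis and effector differentiation, and weaker signalling for favouring memory and progenitor states.

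Whole reads per library were recovered from the group concentrations of the deposited table and carry no replicate number, so libraries are listed from deepest to shallowest within a group. Relative depth, scaled so that the 6 libraries average 1, was 1.28, 0.916 and 0.792 for the WT libraries and 1.935, 1.07 and 0.00577 for those without UTX. The shallowest UTX-deficient library was close to empty, 335-fold shallower than the deepest of its group, and it had no read in any of the 37 member sites. The 37 sites held 2066, 1658 and 1184 reads in the WT libraries and 83, 136 and 0 reads in the UTX-deficient libraries. Values below are therefore given with the near-empty library and, for residual signal, limma fits and some single sites, without it. Among the defining markers of the sorted cells, 8 of 9 CD8 T cell genes had a listed site, and none of 5 B cell, 5 myeloid, 3 NK cell and 5 pancreatic genes had one. At Kdm6a itself, 1 site covered the start of the gene, with 65, 48 and 35 reads in the WT libraries and 8, 12 and 0 without UTX. Its log2 fold was -2.73 (DiffBind FDR 7.14e-11 in the authors' deposited table), and because the deleted part is not given, this site does not check the genotype.

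At 19 of the members a site overlapped the 250 bases before a listed start, and 8 of these stretches are shown because the sites with the strongest loss or the highest WT signal, or motif matches, lie in them. Each is the part of the 250 bases that the site covers, read 5′ to 3′ on the strand of the gene from RefSeq sequence of GRCm38.p6, the assembly of mm10. The first 4 hold the E-box CACGTG, the palindrome read by basic helix-loop-helix factors such as MYC and TFEB, in capitals. They belong to Fnip1 (chr11:54437929-54438152, plus strand), Rragc (chr4:123917183-123917432, plus strand), Lamtor1 (chr7:101905619-101905836, plus strand) and Hif1a (chr12:73907617-73907866, plus strand). In Lamtor1 a second run of capitals, ACCACA, marks the reverse complement of the RUNX motif TGTGGT, and the matches share no letters.
Fnip1: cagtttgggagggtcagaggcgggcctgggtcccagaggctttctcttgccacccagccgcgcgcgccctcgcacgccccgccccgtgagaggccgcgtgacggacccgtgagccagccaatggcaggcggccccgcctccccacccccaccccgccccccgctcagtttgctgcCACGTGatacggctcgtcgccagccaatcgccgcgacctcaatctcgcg
Rragc: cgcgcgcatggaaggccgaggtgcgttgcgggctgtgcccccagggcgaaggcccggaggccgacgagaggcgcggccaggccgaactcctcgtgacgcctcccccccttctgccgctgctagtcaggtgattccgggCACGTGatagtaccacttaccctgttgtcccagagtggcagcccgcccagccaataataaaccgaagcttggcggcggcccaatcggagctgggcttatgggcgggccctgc
Lamtor1: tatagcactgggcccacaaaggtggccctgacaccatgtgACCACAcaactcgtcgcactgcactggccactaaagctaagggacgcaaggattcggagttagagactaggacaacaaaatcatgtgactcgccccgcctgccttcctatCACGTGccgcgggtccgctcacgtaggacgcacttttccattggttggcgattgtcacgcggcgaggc
Hif1a: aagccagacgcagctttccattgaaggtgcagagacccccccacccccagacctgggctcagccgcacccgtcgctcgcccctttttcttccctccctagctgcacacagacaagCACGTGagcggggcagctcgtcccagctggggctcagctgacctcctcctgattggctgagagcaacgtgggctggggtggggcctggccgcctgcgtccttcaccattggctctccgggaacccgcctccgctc
The E-box began 75, 112, 68 and 135 bp before the start of Fnip1, Rragc, Lamtor1 and Hif1a. Capitals in the next pair mark CTTCCGG, the reverse complement of the ETS motif CCGGAAG, at Eif4ebp2 (chr10:61452755-61452919, minus strand) and the cyclic AMP response element TGACGTCA at Flcn (chr11:59810040-59810289, minus strand), whose site the table assigns to a neighbouring transcript.
Eif4ebp2: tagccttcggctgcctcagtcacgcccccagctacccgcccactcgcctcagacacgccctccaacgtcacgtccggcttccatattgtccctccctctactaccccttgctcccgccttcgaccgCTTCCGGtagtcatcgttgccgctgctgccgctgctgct
Flcn: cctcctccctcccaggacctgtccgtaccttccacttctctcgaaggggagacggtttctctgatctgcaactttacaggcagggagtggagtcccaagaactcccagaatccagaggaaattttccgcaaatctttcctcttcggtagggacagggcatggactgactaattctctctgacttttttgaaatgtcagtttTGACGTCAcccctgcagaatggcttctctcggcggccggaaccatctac
In the last pair, capitals mark each CpG dinucleotide. Ddit4 (chr10:59951771-59952020, minus strand, 22 CpG) had the larger loss of the pair by the authors' fold, and Gsk3b (chr16:38088792-38089000, plus strand, 13 CpG) had the highest WT signal of all member sites. In limma without the near-empty library the order was reversed, with log2 differences of -4.77 at Ddit4 and -4.89 at Gsk3b.
Ddit4: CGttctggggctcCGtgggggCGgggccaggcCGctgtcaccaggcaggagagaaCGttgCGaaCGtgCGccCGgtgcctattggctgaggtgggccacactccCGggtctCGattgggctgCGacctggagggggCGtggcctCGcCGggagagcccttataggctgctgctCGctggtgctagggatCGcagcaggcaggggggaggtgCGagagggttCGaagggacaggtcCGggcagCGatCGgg
Gsk3b: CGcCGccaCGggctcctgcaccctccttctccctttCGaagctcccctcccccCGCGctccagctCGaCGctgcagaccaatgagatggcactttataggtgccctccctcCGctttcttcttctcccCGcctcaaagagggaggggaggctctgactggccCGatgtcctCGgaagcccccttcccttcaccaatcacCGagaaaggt

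Of the 39 members with a promoter entry, 19 had a promoter that a listed site overlapped, and 5 of these 19 promoters held CACGTG anywhere in the 250 bases, on either strand: Rragc, Rheb, Lamtor1, Fnip1 and Hif1a. In Rheb the match lay outside the site. None of the 32 other member promoters held it, against 9.9% of all 4113 promoters that a listed site overlapped and 6.02% of all 32851 promoters. The ETS motif was found in 2 of the 19 promoters (Mtor and Eif4ebp2) and in 5 of the 32 others, against 16.2% of promoters with a site and 6.91% of all. The RUNX motif TGTGGT stood in 2 of the 19 (Lamtor1 and Sesn3) and in 1 of the 32 others (Akt2), against 9.92% of promoters with a site and 14.0% of all. The FOXO motif TGTTTAC stood in 0 of the 19 and in 2 of the 32 (Pik3cg and Akt1), against 1.73% and 3.17%. The response element TGACGTCA stood in 1 of the 19 (Flcn) and 0 of the 32, against 3.55% and 1.55%. The NRF1 motif stood in none of either set, against 1.77% and 0.782%. The median number of CpG in the 250 bases was 20.0 in member promoters with a site, the same as in all promoters with a site, against 14.5 in the other member promoters and 6.0 in all promoters. These matches are letters in a window and were not tested.

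Without UTX, the signal was lower at all 37 sites of the pathway genes, from the regulatory and catalytic arms of PI3K down to mTOR itself and its effectors. No member site was higher, and only 21 of all 6739 listed sites were. Sites were found at 25 of the 42 genes (59.5%), against 22.1% of the 21900 protein-coding genes with a lower site. All 37 sites passed the authors' threshold, DiffBind FDR under 0.05, as every row of the deposited table did. Over all 8293 tests behind the table, 81.0% were lower in UTX-deficient cells at that threshold, and the 1554 tests outside the table carry no gene name here, so how many of them lay at members was not tested. At each of the 37 sites every WT library lay above every UTX-deficient library, which held for 99.7% of the 6734 listed sites with recovered reads. In the near-empty library 1 read counts as 173.2 normalized reads, against a median WT level of 37.0 at the member sites. At a site of that level a count of 0 there was therefore likely with or without a loss. This holds less at Gsk3b, whose WT level was 184. How likely 0 reads over all 37 sites together would be without a loss was not tested. The separation at single sites rests on the well-sequenced libraries. With limma on log2(normalized reads + 1), fitted without the near-empty library over all 6734 sites, all 37 were lower, as were 99.7% of all sites. With the near-empty library, limma called the same number of member sites, 37. The listed sites had been selected for differing between the genotypes, so these fits are no independent test.

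In the authors' deposited table the 37 sites had a median log2 fold of -3.82 (quartiles -4.25 and -3.47), against a median of -3.51 over all lower sites. In limma without the near-empty library, the median log2 difference was -3.93 over the member sites, from -5.03 to -2.42, and -3.65 over all sites. In the 2 well-sequenced UTX-deficient libraries the member sites kept a median of 4.70% of the WT signal, from 1.26% at Pdpk1 to 17.0% at Hif1a, against 5.75% over all lower sites. The WT level was also near that of all lower sites, with a median of 37.0 normalized reads per library against 30.7. The WT libraries differed among themselves by a median coefficient of variation of 14.9% at the member sites, from 4.04% at Pdpk1 to 33.0% at Tfeb.

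**Figure D1:**
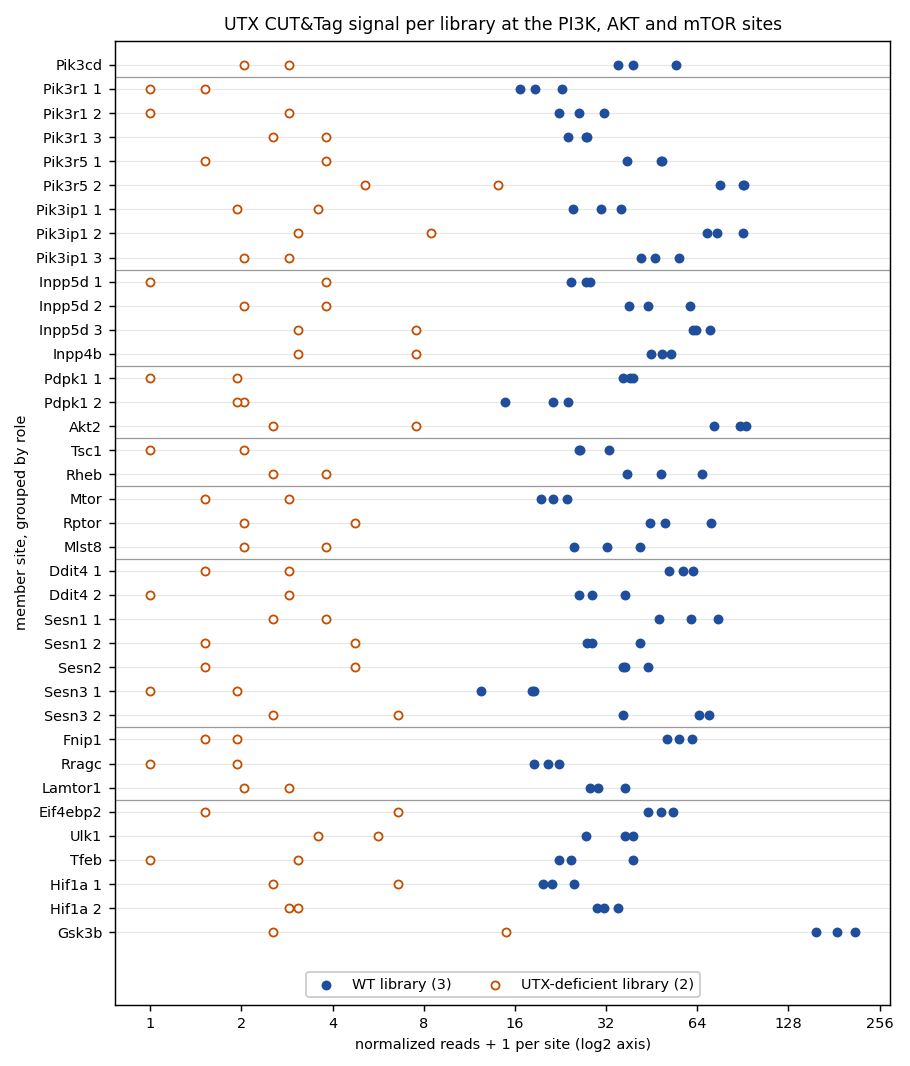
Normalized reads plus 1 per site (log2 axis) at the 37 member sites, grouped by role, with the 3 WT libraries as filled points and the 2 well-sequenced UTX-deficient libraries as open points; the near-empty library is at 0 in each site and is not drawn. Numbers after a name count the sites of a gene, and at each site all WT points lie to the right of the UTX-deficient points.

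The 25 genes with a site were spread over 9 of the 10 roles. Sites were listed at 3 of 3 PI3K regulatory genes and 2 of 2 phosphoinositide phosphatases, at 2 of 3 genes of PDK1 and AKT and 2 of 3 of TSC and Rheb, and at 1 of 3 PI3K catalytic genes. The stress and amino acid sensors had sites at 4 of 6 genes, the mTOR complexes and the lysosomal Rag axis at 3 of 6 each, and the effectors at 5 of 7. The AMPK and LKB1 genes were the only role with none, at 0 of 3. Over all protein-coding genes 22.1% had a lower site, so 0 of 3 is not unusual. The roles hold 2 to 7 genes each, and differences between them were not tested. Within the pathway 3 genes had 3 sites each (Pik3r1, Pik3ip1 and Inpp5d), 6 had 2 (Pik3r5, Pdpk1, Ddit4, Sesn1, Sesn3 and Hif1a), and 16 had 1. Genes with a site were longer, with a median length of 50180 bp against 21064 bp in the 17 without, and the part of length in these counts was not tested.

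**Figure D2:**
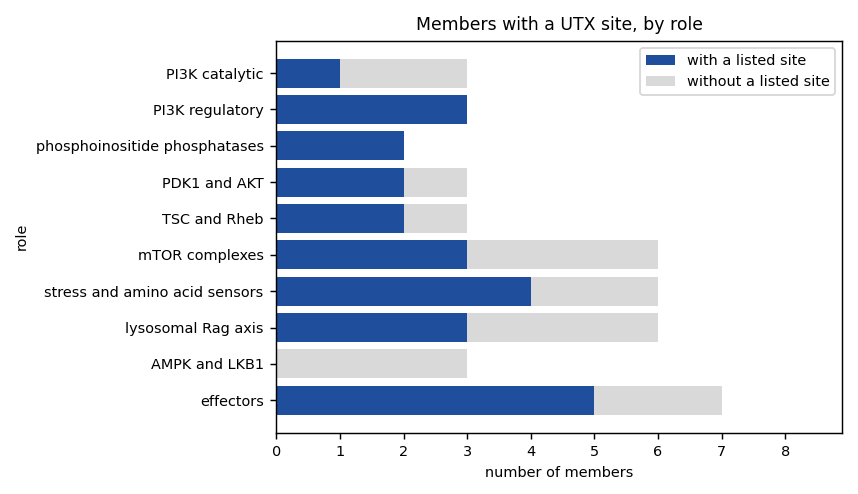
Number of members (x axis) with a listed UTX site, in blue, and without one, in grey, for each of the 10 roles. All members of the PI3K regulatory and phosphoinositide phosphatase roles have a site, and the 3 AMPK and LKB1 genes have none. Differences between roles were not tested.

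Among the catalytic subunits of PI3K, a site was listed at Pik3cd, which encodes the p110 delta subunit of leukocytes, and none at Pik3ca or Pik3cg. The Pik3cd site lay inside the gene, 453 bp after a start (chromosome 4, 149698055 to 149698455), with 49, 49 and 27 reads in the WT libraries and 2, 2 and 0 without UTX. The WT libraries lay at 34.1 to 53.5 normalized reads, and no UTX-deficient library came above 1.86. Its mean was 42.0 ± 10.2 normalized reads (SD, n = 3) in WT, against 0.966 ± 0.934 (SD, n = 3) without UTX. The latter counts the 0 of the near-empty library, and the 2 well-sequenced UTX-deficient libraries lay at 1.03 and 1.86. The log2 fold at Pik3cd was -4.30 (DiffBind FDR 1.71e-10 in the authors' deposited table).

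The regulators of PI3K held the most sites, 8 over 3 genes. Pik3r1, which encodes the p85 alpha regulatory subunit, carried 3. The site that covered its start (chromosome 13, 101768113 to 101768513) had 34, 21 and 21 reads in the WT libraries and 3, 3 and 0 without UTX, with a log2 fold of -3.11 (DiffBind FDR 8.61e-06 in the authors' deposited table). A site 9647 bp before another start, inside the gene (101702077 to 101702477), had 39, 23 and 17 reads against 0, 2 and 0. The third, outside the gene and 21651 bp from its end (101658910 to 101659310), had 20, 20 and 14 reads against 1, 0 and 0. The WT libraries were close together at the start of Pik3r1, at 25.3 ± 2.09 normalized reads (SD, n = 3), and the other sites gave log2 folds of -3.79 and -3.49 (DiffBind FDR 2.99e-05 and 0.00184 in the authors' deposited table).

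Pik3ip1 encodes a transmembrane protein that restrains PI3K in T cells, and all 3 of its sites overlapped the gene. The middle one, inside the gene 1656 bp after a start (chromosome 11, 3332187 to 3332587), had 87, 82 and 58 reads in the WT libraries and 4, 8 and 0 without UTX. It lay at 76.9 ± 11.2 normalized reads (SD, n = 3) in WT and had the second smallest FDR of the members, with a log2 fold of -4.02 (DiffBind FDR 4.86e-18 in the authors' deposited table). The site 5257 bp after the start (3335788 to 3336188) had 52, 50 and 36 reads against 2, 2 and 0, a log2 fold of -4.49 (DiffBind FDR 2.69e-12 in the authors' deposited table). The one 1374 bp before it (3329157 to 3329557) had 38, 32 and 19 reads against 5, 1 and 0, with a log2 fold of -3.39 (DiffBind FDR 2.17e-06 in the authors' deposited table). The strongest WT signal at Pik3ip1 thus stood after the start. Groups did not overlap at any of the 3 sites, as at 99.7% of the listed sites with recovered reads. The 0 of the near-empty library adds little to this separation.

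Pik3r5 encodes the p101 adaptor of the PI3K gamma enzyme, whose catalytic gene Pik3cg had no row. The site over its start (chromosome 11, 68431825 to 68432225), which lay nearer to the start of the transcript Gm32046, had 61, 44 and 29 reads in the WT libraries and 1, 3 and 0 without UTX. Inside the gene, 19304 bp after the start (68451229 to 68451629), the reads were 96, 83 and 71 in WT against 8, 14 and 0. The inner site was the higher one in both genotypes, at 85.1 ± 8.69 against 44.1 ± 6.50 normalized reads in WT (SD, n = 3). It kept 10.1% of the WT signal in the well-sequenced UTX-deficient libraries, and the site at the start 3.76%. Their log2 folds were -3.32 and -4.40 (DiffBind FDR 3.33e-14 and 1.12e-11 in the authors' deposited table).

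The phosphatases that remove the PI3K lipid product both had sites. Inpp5d, which encodes SHIP1 of blood cells, carried 3, and the site 16894 bp after its start (chromosome 1, 87637006 to 87637406) had 80, 56 and 55 reads in the WT libraries and 4, 7 and 0 without UTX. At 64.4 ± 4.44 normalized reads (SD, n = 3) in WT this site varied little between libraries, and its log2 fold was -3.91 (DiffBind FDR 1.16e-17 in the authors' deposited table). The site 6315 bp after the start (87626427 to 87626827) had 76, 34 and 34 reads against 2, 3 and 0, and the deepest WT library stood above the other two there. The third site, outside the gene and 12640 bp before the start (87607472 to 87607872), had 30, 25 and 21 reads against 0, 3 and 0. These gave log2 folds of -4.25 and -3.31 (DiffBind FDR 2.37e-11 and 0.000541 in the authors' deposited table), and no Inpp5d site covered a start. Inpp4b, the phosphatase that acts on the next lipid of the cascade, had 1 site 155286 bp into its long gene, with a log2 fold of -3.48 (DiffBind FDR 3.31e-13 in the authors' deposited table).

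In the kinase step, Pdpk1 (PDK1) and Akt2 had sites and Akt1 had none. The Akt2 site, 799 bp after its start (chromosome 7, 27592151 to 27592551), had 117, 80 and 57 reads in the WT libraries and 3, 7 and 0 without UTX. It lay at 83.6 ± 10.3 normalized reads (SD, n = 3) in WT and had the smallest FDR of all members, with a log2 fold of -4.38 (DiffBind FDR 1.59e-19 in the authors' deposited table). In limma without the near-empty library the Akt2 difference was -4.26 ± 0.62 (SE) on the log2 scale, with an adjusted p of 5.5e-06.
At Pdpk1, the site over an internal start (chromosome 17, 24141401 to 24141801) had 48, 35 and 28 reads in the WT libraries and 0, 1 and 0 without UTX. Scaled for depth, this is a ratio of 112 over the 5 well-sequenced libraries, with an exact binomial 95% interval of 19.6 to 4454 that covers counting error only. By coefficient of variation the WT libraries were closer together there than at any other member site, at 37.0 ± 1.5 normalized reads (SD, n = 3), and the log2 fold was -4.96 (DiffBind FDR 1.69e-09 in the authors' deposited table). The other Pdpk1 site, 1431 bp before a start (24152153 to 24152553), had 26, 21 and 11 reads against 2, 1 and 0, with a log2 fold of -3.10 (DiffBind FDR 0.00121 in the authors' deposited table). Its ratio was 19.5 with an interval of 6.34 to 97.1, which overlaps that of the first site.

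Of the brake on mTORC1, Tsc1 had a site and Tsc2 did not, and Rheb, the GTPase they control, had 1. The Rheb site, just outside the gene and 428 bp before its start (chromosome 5, 24842589 to 24842989), had 61, 60 and 29 reads in the WT libraries and 3, 3 and 0 without UTX. Its WT mean of 49.9 ± 14.6 normalized reads (SD, n = 3) was among the more variable ones, with the middle library by depth the highest, at 65.5. The log2 fold was -4.16 (DiffBind FDR 9.95e-12 in the authors' deposited table). At Tsc1, 244 bp before a start, it was -4.12 (DiffBind FDR 1.27e-06 in the authors' deposited table).

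The mTOR complexes had sites at the genes of the kinase itself (Mtor), of Raptor, which brings substrates to mTORC1 (Rptor), and of the shared subunit Mlst8. No row was assigned to Rictor, which defines mTORC2, nor to the inhibitors Akt1s1 (PRAS40) and Deptor. The Rptor site, 68313 bp into the gene (chromosome 11, 119671018 to 119671418), had 56, 64 and 39 reads in the WT libraries and 2, 4 and 0 without UTX. Its mean was 54.3 ± 13.8 normalized reads (SD, n = 3) in WT, against 1.59 ± 1.93 (SD, n = 3) without UTX. The latter counts the 0 of the near-empty library, and the 2 well-sequenced UTX-deficient libraries lay at 1.03 and 3.73. The log2 fold at Rptor was -4.27 (DiffBind FDR 9.77e-13 in the authors' deposited table). The Mtor and Mlst8 sites covered the gene starts and gave log2 folds of -3.21 and -3.61 (DiffBind FDR 0.000372 and 3.23e-07 in the authors' deposited table). Mtor itself was one of the low sites, at 20.5 ± 2.09 normalized reads (SD, n = 3) in WT, so that its 61 WT reads stood against 3 in UTX-deficient cells.

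Of the sensors that hold mTORC1 back under stress or amino acid shortage, Ddit4 (REDD1) and the sestrin genes Sesn1, Sesn2 and Sesn3 had sites, and the arginine sensor genes Castor1 and Castor2 had none. The Ddit4 site over the start (chromosome 10, 59951706 to 59952106), whose upstream bases are printed above, had 72, 56 and 40 reads in the WT libraries and 1, 2 and 0 without UTX. The WT mean was 56.0 ± 5.32 normalized reads (SD, n = 3), and the 168 WT reads against 3 give a depth-scaled ratio of 56.4, with an exact binomial 95% interval of 19.0 to 276 for counting error only. This was the second largest loss of the members, a log2 fold of -5.00 (DiffBind FDR 7.74e-14 in the authors' deposited table). A second Ddit4 site, outside the gene and 13158 bp before the start, gave -4.13 (DiffBind FDR 8.32e-07 in the authors' deposited table).

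Sesn1 had 1 site 477 bp before one of its starts (chromosome 10, 41809897 to 41810297), with 77, 68 and 37 reads in the WT libraries and 3, 3 and 0 without UTX. The start of the neighbouring gene Cep57l1 lay nearer to this site, at 229 bp. With 60.4 ± 13.8 normalized reads (SD, n = 3) in WT it was the highest site of the sensors, and its log2 fold was -4.47 (DiffBind FDR 1.3e-14 in the authors' deposited table). The other Sesn1 site covered a second start (41887174 to 41887574) and had 34, 37 and 22 reads against 1, 4 and 0, with a log2 fold of -3.47 (DiffBind FDR 4.12e-06 in the authors' deposited table). Sesn3 held a site at its start, with a log2 fold of -3.81 (DiffBind FDR 1.62e-10 in the authors' deposited table), and the weakest WT site of the pathway. The latter, 13473 bp before the start (chromosome 9, 14262628 to 14263028), had 22, 16 and 9 reads against 0, 1 and 0. The transcript Gm34069 started nearer to it, at 1464 bp, and with a log2 fold of -2.72 it had the largest FDR of the members (DiffBind FDR 0.0339 in the authors' deposited table). At Sesn2, 5174 bp before the start, the log2 fold was -3.94 (DiffBind FDR 7.12e-10 in the authors' deposited table).

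On the lysosomal Rag axis, sites were listed at Fnip1, whose protein pairs with folliculin to act on the Rag GTPases, at the GTPase gene Rragc, and at Lamtor1, the lysosomal anchor of the Ragulator complex. All 3 sites lay within 227 bp of a start and contain the E-box shown above. The Fnip1 site (chromosome 11, 54437752 to 54438152) had 64, 50 and 48 reads in the WT libraries and 1, 1 and 0 without UTX. Its mean was 55.1 ± 5.29 normalized reads (SD, n = 3) in WT, against 0.483 ± 0.467 (SD, n = 3) without UTX. The latter counts the 0 of the near-empty library, and the 2 well-sequenced UTX-deficient libraries lay at 0.517 and 0.932. The loss at Fnip1 was the largest of the members, a log2 fold of -5.23 (DiffBind FDR 6.51e-13 in the authors' deposited table). The depth-scaled ratio of 162 reads against 2 was 81.6, with an exact binomial 95% interval of 22.2 to 679, and limma without the near-empty library gave a log2 difference of -5.03 ± 0.48 (SE; adjusted p = 2.41e-07). Rragc and Lamtor1 gave log2 folds of -3.57 and -3.82 (DiffBind FDR 0.000732 and 6.32e-08 in the authors' deposited table). No row was assigned to Flcn, Fnip2 or Rraga.

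In the energy-sensing arm there was no row for Prkaa1 and Prkab1, which encode subunits of AMPK, or for Stk11, the upstream kinase LKB1. Whether its sites were tested and missed the threshold is not known from the table. In the list of other pathway genes, the AMPK subunit genes Prkab2, Prkag1 and Prkag2 and the LKB1 partners Strada and Stradb did have a lower site.

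Among the effectors, sites were listed at Eif4ebp2 (a translation repressor that mTORC1 switches off), Ulk1 (the kinase that starts autophagy), Tfeb (the transcription factor of lysosome genes), Hif1a (the regulator of glycolytic genes) and Gsk3b (a kinase that AKT inhibits), and none at Eif4ebp1 or Myc. The Eif4ebp2 site, 286 bp before a start (chromosome 10, 61452755 to 61453155), had 61, 48 and 34 reads in the WT libraries and 1, 6 and 0 without UTX. With 47.7 ± 4.74 normalized reads (SD, n = 3) in WT its log2 fold was -3.94 (DiffBind FDR 1.9e-12 in the authors' deposited table). The Ulk1 site covered a start (chromosome 5, 110810057 to 110810457) and had 46, 35 and 21 reads against 5, 5 and 0. It kept 10.8% of the WT signal in the well-sequenced UTX-deficient libraries, with a log2 fold of -3.02 (DiffBind FDR 1.45e-07 in the authors' deposited table). The Tfeb site, 209 bp before a start, gave -3.50 (DiffBind FDR 0.000143 in the authors' deposited table).

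Hif1a had the smallest loss of the members at a site far from the gene. This site lay 65484 bp before the listed start and outside the gene (chromosome 12, 73842183 to 73842583), nearer to the transcript Gm8075, with 24, 22 and 16 reads in the WT libraries and 3, 6 and 0 without UTX. Its log2 fold was -2.14 (DiffBind FDR 0.0113 in the authors' deposited table), and limma without the near-empty library gave a log2 difference of -2.42 ± 0.49 (SE; adjusted p = 0.000144). The depth-scaled ratio was 6.94, with an exact binomial 95% interval of 3.43 to 15.9. At the start of Hif1a, within the bases printed above, the log2 fold was -3.50 (DiffBind FDR 4.35e-08 in the authors' deposited table), and the residual signal was 6.30% against 17.0% at the distant site. The depth-scaled ratio at the start was 15.4, with an interval of 6.83 to 43.2 that overlaps that of the distant site.

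The Gsk3b site was singled out after its values were seen, because its WT level was the highest of the pathway. It covered the start (chromosome 16, 38088792 to 38089192) and had 236, 194 and 124 reads in the WT libraries and 3, 15 and 0 without UTX. The WT mean of 184 ± 27.6 normalized reads (SD, n = 3) ranked 55 among the 6718 lower sites by WT concentration, and its FDR ranked 2969. The well-sequenced UTX-deficient libraries differed there, at 1.55 and 14.0 normalized reads, and the log2 fold was -4.17 (DiffBind FDR 3.97e-07 in the authors' deposited table). Without the near-empty library limma gave a log2 difference of -4.89 ± 0.78 (SE; adjusted p = 1.27e-05).

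**Figure D3:**
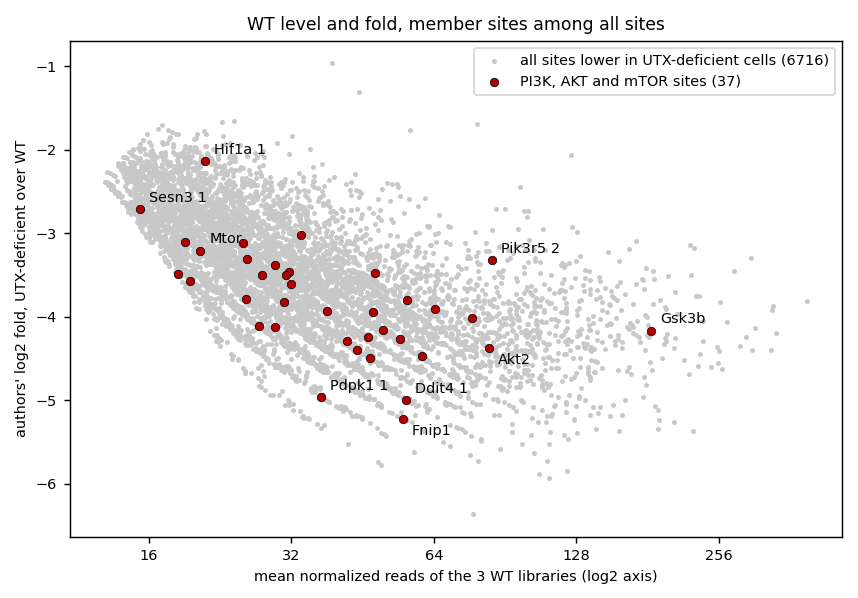
Authors' log2 fold (UTX-deficient over WT) against the mean normalized reads of the 3 WT libraries (log2 axis) for the lower sites with recovered reads, in grey, and the 37 member sites, in red. Gsk3b stands to the right at 184 normalized reads, Fnip1 lowest among the members at -5.23, and the distant Hif1a site highest at -2.14.

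Most member sites lay close to a gene start, as most listed sites did. A start of the assigned gene was covered by 13 of the 37 sites (35.1%), against 45.8% of the 5382 lower sites that could be placed. Within 1 kb of a start lay 21 member sites (56.8%) against 61.0%, and over 10 kb away lay 9 (24.3%) against 26.1%. The median distance was 453 bp for the member sites and 245.5 bp for all placed lower sites. Of the member sites 29 (78.4%) overlapped their gene, against 77.4%, and 32 (86.5%) had their own gene's start as the nearest one, against 79.1%. The 21 sites near a start had a median log2 fold of -3.94 and the 16 farther ones -3.64 in the authors' deposited table, beside -3.55 and -3.47 over all lower sites. The difference between near and far sites was not tested.

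**Figure D4:**
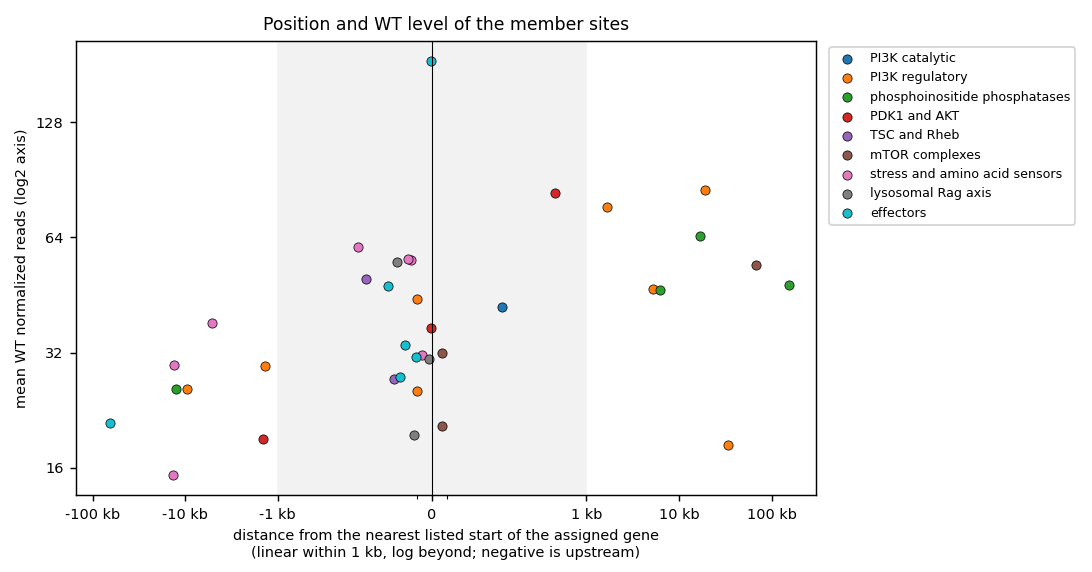
Mean WT normalized reads (log2 axis) of the 37 member sites against the distance of the site's middle from the nearest listed start of its gene (linear within 1 kb, shaded, and log beyond; negative is upstream), coloured by role. The 21 sites within 1 kb include the highest one, at Gsk3b, and the 9 sites over 10 kb away lie on both sides of the starts.

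Counting the sites within 1 kb of a gene end, 17 of the 42 members had one, against 15.3% of the protein-coding genes. The choice of members could affect this comparison too. For 2 members without a row of their own, a site assigned to a neighbour lay at the gene, which was seen only after the data had been examined. The site assigned to Gm16062 covered the start of Flcn (chromosome 11, 59809905 to 59810305) and had 47, 40 and 28 reads in the WT libraries and 3, 2 and 0 without UTX, with a log2 fold of -4.01 (DiffBind FDR 1.34e-10 in the authors' deposited table). Flcn encodes folliculin, the partner of Fnip1, and its upstream bases are shown with the promoters. A site assigned to Tbc1d17 overlapped Akt1s1 (chromosome 7, 44848927 to 44849327), 1245 bp before its listed start. It had 194, 139 and 118 reads in the WT libraries and 5, 13 and 0 without UTX, and its WT level was 151 ± 1.60 normalized reads (SD, n = 3). The log2 fold was -4.23 (DiffBind FDR 2.73e-13 in the authors' deposited table), so the absence of a row does not mean that no UTX signal lay at the gene.

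The rest of the pathway was described from a list of 70 further genes. Of these, 28 had a lower site, beside 22.1% of the 21900 protein-coding genes. None had a higher site, and only 21 of all 6739 listed sites were higher. The list was drawn up with earlier results of these data known, and its share of genes with a site was not tested against this background. In the authors' deposited table the 35 sites of the 28 ran from a log2 fold of -4.29 to -2.08, with a median of -3.19. The 4 with the smallest FDR were all over a gene start. Gsk3a, the close relative of Gsk3b, had 91, 85 and 74 reads in the WT libraries and 6, 10 and 0 without UTX, a log2 fold of -3.79 (DiffBind FDR 2.14e-17 in the authors' deposited table). Irs2, an adaptor of the insulin receptor, had 78, 46 and 44 reads against 4, 6 and 0, and a fold of -3.82 (DiffBind FDR 1.79e-15 in the authors' deposited table). At Pik3r3, another PI3K regulatory gene, the reads were 79, 47 and 37 against 1, 5 and 0 and the fold -4.29 (DiffBind FDR 8.94e-14 in the authors' deposited table). Strada, a partner of LKB1, had 62, 59 and 36 reads against 2, 5 and 0, with a fold of -4.09 (DiffBind FDR 2.35e-13 in the authors' deposited table). At all of these the groups did not overlap, as at 99.7% of the listed sites with recovered reads. Here too the 0 of the near-empty library adds little. The transcription factor genes Foxo1, Foxo3 and Foxo4 were among the 28, whereas the GATOR1 genes Nprl2, Nprl3 and Depdc5 and the S6 kinase genes Rps6kb1 and Rps6kb2 had no row.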

How the data were processed

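UTX CUT&Tag was measured in 3 WT and 3 UTX-deficient samples; the labels' genotype sets the groups. The submitters' processing notes list build mm10 and, in no stated order, DiffBind, MACS2, Bowtie2, cutadapt, FastQC, Picard and SAMtools. How each was used, its version, and whether samples were pooled for peak calling are details not given in the sources used here. The authors' table, per the file headers, gives concentrations and a fold as log2 values, where concentrations are log2 of the mean normalized reads and never go below 0. The p-value and FDR are those the authors deposited, each FDR under 0.05. The IgG controls were not used here.

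The main values are the authors' fold and FDR. Whole reads per library were recovered from the group concentrations: 3 times the antilog is a sum of whole reads times the worth of 1 read in each library. The sum had exactly 1 solution at 6736 sites in WT and 6737 in UTX-deficient cells, and 6734 in both. Where a UTX-deficient sum had several solutions, that with 0 reads in the near-empty library was kept if only 1 such existed. A site settled in this way is counted as having 1 solution. Sums shifted at random by 0.05 to 0.45 were solved in 0.549% and 0.0148% of cases. On 3 simulated tables of at least 6736 sites, at most 13 sites were unsolved and 3 were wrong in all. Limma 3.58.1 in R 4.3.3 was fitted on log2(normalized reads + 1) over the 6734 sites, with Benjamini-Hochberg adjustment over all of them. On simulated data for 6734 sites without the near-empty library, it called 96.0% of sites planted at a log2 fold of -2, 100.0% at -3 and 0.046% of unchanged ones. Fitted on the same 6734 simulated sites with the near-empty library, it called 0 of 100 sites planted at -2 and 5 of 100 at -3. Of the simulated sites 6534 were unchanged, whereas limma without the near-empty library called 99.7% of the real sites lower. The simulated rates therefore need not carry over to the real fits. With 3 libraries a group, no exact two-sided permutation test can go below 0.1. PCR reads that carry no molecular identifier do not count independent molecules, so intervals cover counting error only.

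All 42 members matched the RefSeq annotation of GRCm38.p6, and 39 had a promoter entry; no exon positions were used. The members and the other lists were chosen with earlier results of these data known. Full values are given for the 5 members with the most sites, the 6 sites with the largest fold, the 6 with the smallest FDR, the 4 with the smallest fold, any site higher in UTX-deficient cells (none) and the site with the smallest FDR in each role; genes outside the members are given by counts, with values for 4. Alternatives covered the FDR threshold, distance to the gene, gene names, the pseudocount, low WT levels and each library left out.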

Additional observations from a re-analysis of the deposited data

How the results depend on the processing

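The count of 37 member sites was 35 at an FDR under 0.01 and 33 at 0.001, with 25 members in both cases, and 37 in every limma fit on all sites, with pseudocounts of 0.5, 1 and 5 and with each of the 6 libraries left out in turn (lowest and highest 37). It was 20 for sites with a WT concentration of at least 5, 17 within 1 kb of a gene end and, as alternatives chosen after seeing the data, 21 within 1 kb of a start; these settings keep fewer sites by construction. The count of 25 members was 25 with sites within 10 kb or overlapping the gene and through synonyms, 17 within 1 kb of a gene end, and, added after seeing the data, 20 within 1 kb of a start and 25 with any overlapping site, where Flcn and Akt1s1 enter and Rheb and Sesn2 drop out. All 353 values of single member sites under the alternatives kept their direction and their side of the threshold. Nearly all listed sites did the same, as each limma fit on all 6734 sites called 6711 to 6716 of them lower. The sites had been selected for differing between the genotypes, so these refits are no independent check of the members. The median log2 difference of the members was -4.37 with all libraries, -3.93 without the near-empty one, -4.95 with a pseudocount of 0.5 and -2.79 with 5, so its size depends on the pseudocount. TMM scaling was not run, since the listed sites were chosen for differing between the genotypes. No paired analysis was possible because the table holds group values and the recovered libraries carry no replicate numbers. Depth limits the UTX-deficient values, which rest on 1 to 22 reads a site over the 2 well-sequenced libraries.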
